A study of Mus musculus with 6 samples.

Results

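The protease-activated receptors of mouse brain endothelial cells are encoded by 4 genes, F2r, F2rl1, F2rl2 and F2rl3, which were taken by gene symbol from a table of 52636 genes. Each is a G protein-coupled receptor of the cell surface that a protease switches on by cutting its outer end, so that the newly exposed end acts as a tethered ligand. F2r encodes PAR1, the main thrombin receptor of endothelium, through which thrombin opens cell junctions and activated protein C tightens them. F2rl1 encodes PAR2, which trypsin-like proteases and the tissue factor complex cleave and thrombin largely does not. F2rl2 encodes PAR3, which thrombin cleaves and which in mouse platelets serves as a cofactor for PAR4, the product of F2rl3. Apart from platelets, endothelial cells are a main site where these receptors meet thrombin.

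RNA was sequenced from endothelial cells that had been isolated from mouse brain, cultured and sorted as live, CD45 negative, CD31 positive and VE-cadherin positive. Of the 6 libraries, 3 came from Erg and Fli1 double knockout cells (called knockout) and 3 from Wild Type Control cells (called control), and both groups had received 4-OHT, a drug used to switch on inducible Cre. Erg and Fli1 are ETS-family transcription factors of endothelium, and the series asks how such factors hold adult endothelial fate. The labels give neither the Cre driver nor the age of the mice, and they do not say which libraries share an animal or culture, and the p-values therefore reflect only how far these libraries spread, in part perhaps for technical reasons.

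The libraries held 17274639 to 19410458 counts. Levels are given as CPM (counts per 1000000, scaled by TMM) with the SD over n = 3 libraries, and a gene was called changed at an edgeR adjusted p under 0.05. Erg had 70.2, 88.3 and 109 CPM in knockouts 1, 2 and 3, against 656, 223 and 609.6 CPM in controls 1, 2 and 3. For Fli1 these were 57.04, 68.5 and 66.7 CPM in knockouts and 82.9, 64.1 and 92.1 CPM in controls, which overlap. A whole-gene count would also take in any transcripts that lack deleted exons, and whether such transcripts were present was not tested. Erg was called lower (log2 fold change -2.48, edgeR adjusted p = 0.0137), and Fli1 did not pass with all libraries (log2 fold change -0.32, edgeR adjusted p = 0.181; -0.48, edgeR adjusted p = 0.00346 without control 2). Control 2 stood apart: it had 12367 CPM summed over 10 fibroblast markers, against 409 and 1100.1 CPM in controls 1 and 3 and 1645 to 2865 CPM in knockouts. The members did not move together. Dcn made up most of the sum in knockouts 1, 2 and 3 (1421, 2110 and 1343 CPM) but had 317 CPM in control 2, where Col1a1 led with 5489 CPM. The sum of control 2 over 12 mural markers was 4306 CPM, against 477 and 592 CPM in the other controls and 783 to 1577 CPM in knockouts. Acta2 led this sum in control 2 with 3049 CPM. Not every mural marker was highest there, as Myh11 had 24.1 CPM in control 2 and 80.1 CPM in knockout 2. The results for the receptors are therefore given with and without control 2. The 12 endothelial markers summed to 3930.2 to 4800.5 CPM in knockouts. In controls 1, 2 and 3 they summed to 16297, 7397 and 16243 CPM, so that control 2 had the lowest endothelial sum of the controls. Of these markers 11, or all 12 without control 2, were called lower (9 by limma voom), beside 11.7% of genes tested (24.8% without control 2). Called higher were 0 of them (0 also at an unadjusted p under 0.05, and 0 by DESeq2 or limma voom). Of 8 microglial and macrophage markers 7 stayed under 1 CPM in all libraries, and among 8 platelet markers Gp6 and Treml1 had no count in any library, while Gp9 had 1 count over all libraries together. Itga2b and Gp1ba were detected in every library and not called, and Itgb3, which made up most of the platelet sum, was called lower. Ppbp had 31, 0 and 0 counts in knockouts 1, 2 and 3, against 0, 11 and 3 counts in controls 1, 2 and 3, and did not enter the fit. Pf4, encoding a platelet chemokine, had 55, 67 and 64 counts in knockouts, against 8, 3 and 6 counts in controls, and was called higher (log2 fold change 3.44, edgeR adjusted p = 0.00325; 3.11 without control 2). The part of platelet RNA in the results was not tested.

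The genome places F2rl1, F2r and F2rl2 side by side on chromosome 13 and F2rl3 alone on chromosome 8. On GRCm38, F2rl1 (ENSMUSG00000021678) spans 95511732 to 95525227 on the minus strand, F2r (ENSMUSG00000048376) spans 95601803 to 95618487 on the minus strand, and F2rl2 (ENSMUSG00000021675) spans 95696853 to 95702739 on the plus strand. F2rl2 lies inside the body of Iqgap2, a gene of the opposite strand, without sharing any exonic base with it. F2rl3 (ENSMUSG00000050147) spans 72761880 to 72763874 on the plus strand of chromosome 8. GENCODE lists each of the 4 as protein-coding, and their exons share no base with those of other genes. Transcript stretches of 50 bases were unique to F2r, F2rl1 and F2rl2, whereas 8.23% of those of F2rl3 also occur in transcripts of the gene model Gm29705, so that a small part of the F2rl3 reads could have been assigned elsewhere.

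Promoter sequences are shown because the deleted factors bind DNA through the ETS core GGAA, and because F2rl2 and F2rl3, the receptors that changed furthest, can be set beside F2r. The RefSeq promoter table used here has entries for 3 of the 4 genes, each running from 250 bases before to 50 bases after the start of the gene on its own strand. Capitals mark GGAA or its reverse complement TTCC. The windows are chr13:95696670-95696969 on the plus strand for F2rl2, chr8:72761409-72761708 on the plus strand for F2rl3 and chr13:95618417-95618716 on the minus strand for F2r, all in GRCm38.p6.
F2rl2: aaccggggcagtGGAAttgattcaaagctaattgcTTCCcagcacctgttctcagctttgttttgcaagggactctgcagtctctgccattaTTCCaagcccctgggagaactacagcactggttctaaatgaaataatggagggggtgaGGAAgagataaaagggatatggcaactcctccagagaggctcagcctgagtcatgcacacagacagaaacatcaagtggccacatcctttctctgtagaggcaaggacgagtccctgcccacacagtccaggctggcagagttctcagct
F2rl3: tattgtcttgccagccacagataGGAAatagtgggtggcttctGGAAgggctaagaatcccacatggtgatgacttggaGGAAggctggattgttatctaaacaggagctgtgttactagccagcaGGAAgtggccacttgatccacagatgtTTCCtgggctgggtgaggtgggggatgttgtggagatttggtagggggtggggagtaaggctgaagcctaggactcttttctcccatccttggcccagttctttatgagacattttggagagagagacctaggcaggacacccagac
F2r: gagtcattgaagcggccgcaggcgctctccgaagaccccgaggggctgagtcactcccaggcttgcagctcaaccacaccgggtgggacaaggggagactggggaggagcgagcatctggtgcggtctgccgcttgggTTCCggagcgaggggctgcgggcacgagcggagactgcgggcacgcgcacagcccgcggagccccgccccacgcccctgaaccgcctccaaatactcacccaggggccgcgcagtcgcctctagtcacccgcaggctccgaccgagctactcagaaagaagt

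The F2rl2 window held 4 cores, the F2rl3 window 5 and the F2r window 1. At least 1 core is present in 96.0% of the 32851 RefSeq promoter windows of this length, with a median of 3, so that its presence alone sets no gene apart. At least 4 cores are present in 46.3% of these windows and at least 5 in 28.6%. The longer form AGGAAG (or CTTCCT), which contains the core, occurred 1 time in the F2rl2 window and 2 times in the F2rl3 window, 172 and 125 bases before the start. It occurred 0 times in the F2r window, and it is found at least 1 time in 35.4% of all windows and at least 2 times in 8.62%. The form CGGAAG (or CTTCCG), found in 16.9% of all windows, occurred in none of the 3. The RefSeq start of F2rl3 lies 221 bases before the GENCODE start. A match is a description of these letters and not evidence of binding.

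Transcripts of the thrombin receptors fell in the knockout. F2r, F2rl2 and F2rl3 were called lower, and F2rl1 was called lower only when control 2 was left out. Thus 3 of the 4 members were lower, beside 11.7% of the 13901 genes tested (24.7% were called in either direction), and 4 of 4 without control 2, beside 24.8% of 14178 genes (50.3% in either direction). A log2 fold change of -1 or lower was reached by all 4 members and by 9.59% of genes tested. In F2r, F2rl2 and F2rl3 every knockout also lay below every control, as in 21.3% of all genes tested. The median log2 fold change over the 4 was -2.59, against 0.00 over all genes tested. The genes called were 52.8% higher after TMM scaling and 66.4% higher when only the library size was used, and the members kept their direction under every scaling tried. With any 1 library other than control 2 left out, 1 to 2 of the 4 members were called lower, and F2rl3 was called each time.

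**Figure D1:**
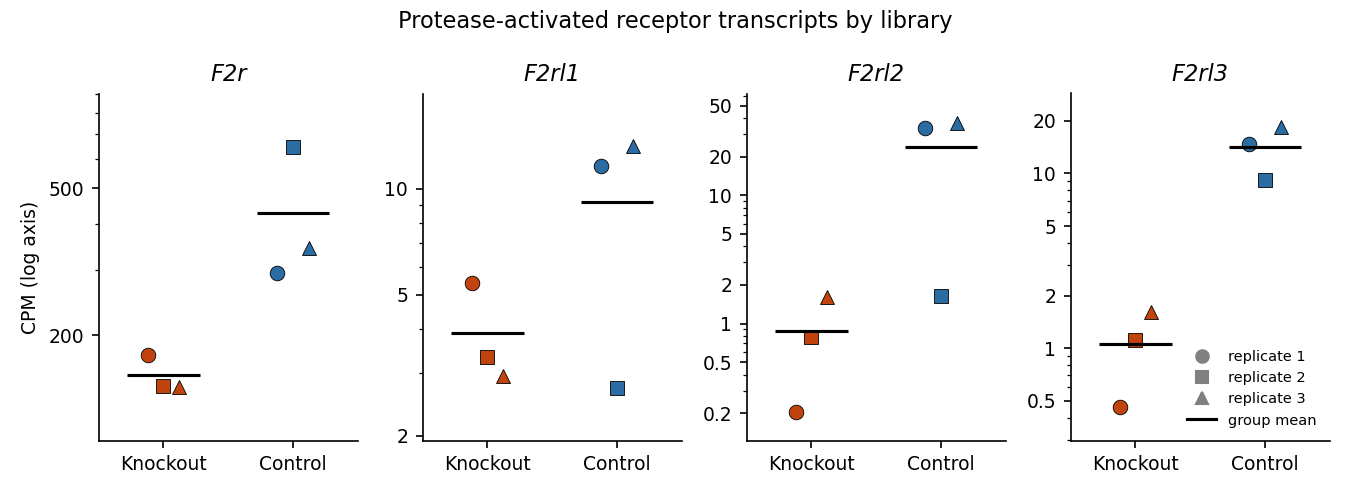
CPM of the 4 receptor genes in each library on a log axis, with knockouts (orange) left of controls (blue), the replicate number as the marker shape and the group mean as a bar. Control 2 is the highest control for F2r and the lowest for the other three genes; for F2rl1 it lies below all knockouts.

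F2r had by far the most counts of the receptors and stood 325th among the genes tested by its mean CPM in controls. It had 3446, 2616 and 2602 counts in knockouts 1, 2 and 3, against 5589, 11842 and 6285 counts in controls 1, 2 and 3. Scaled to library size, these were 177, 146 and 145 CPM in knockouts and 294, 645 and 344 CPM in controls. Every knockout lay below every control, and control 2 stood at 2.02 times the mean of controls 1 and 3. The means were 156 ± 18.3 CPM in knockouts and 428 ± 189.5 CPM in controls, so that 36.5% of the control level remained, with a log2 fold change of -1.46 (edgeR adjusted p = 0.0245, SE 0.32). Without control 2 the log2 fold change came to -1.07 (edgeR adjusted p = 2.189e-04, SE 0.11), and 48.8% of the mean of the other controls remained. The summed fibroblast and mural markers given above were also highest in control 2, though single members such as Dcn and Myh11 were not. The part of these markers in the receptor levels of that library was not tested. In bulk RNA, fewer cells of a type and less RNA per cell cannot be told apart. The call was lost when any 1 knockout library was left out (edgeR adjusted p = 0.0771 to 0.102, with log2 fold changes of -1.55 to -1.40).

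F2rl2, the gene of the cofactor receptor PAR3, showed the largest change of the 4. It had 4, 14 and 29 counts in knockouts 1, 2 and 3, against 636, 30 and 674 counts in controls 1, 2 and 3. In CPM these were 0.206, 0.781 and 1.62 in knockouts and 33.5, 1.63 and 36.9 in controls. Controls 1 and 3 thus held far more counts than any other library, while control 2, with 30 counts, was level with knockout 3, with 29 counts, and the groups were separated by the small gap between 1.62 CPM in knockout 3 and 1.63 CPM in control 2. The means were 0.867 ± 0.709 CPM in knockouts and 24.03 ± 19.5 CPM in controls. The log2 fold change came to -4.79 (edgeR adjusted p = 0.0465, SE 1.31), the 23rd lowest of the 13901 genes tested. Without control 2 it was -5.39 (edgeR adjusted p = 7.421e-05, SE 0.42), and 2.46% of the mean of the other controls remained. The call with all libraries was lost when any 1 library other than control 2 was left out (edgeR adjusted p = 0.107 to 0.159) and with limma voom (adjusted p = 0.319). Without knockout 3, the knockout library with the highest F2rl2 level, the log2 fold change was -5.60.

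F2rl3, the gene of PAR4, fell in the knockout in every fit that was run. PAR4 is cleaved by thrombin, plasmin and cathepsin G. Its counts were 9, 20 and 29 in knockouts 1, 2 and 3, against 280, 168 and 335 in controls 1, 2 and 3. In CPM these were 0.462, 1.12 and 1.62 in knockouts and 14.8, 9.15 and 18.4 in controls. The groups were far apart, with the highest knockout well below the lowest control, which was again control 2. The gene stood 115th from the lowest log2 fold change of all genes tested. The means were 1.06 ± 0.578 CPM in knockouts and 14.1 ± 4.64 CPM in controls, so that 7.56% of the control level remained. The log2 fold change came to -3.72 (edgeR adjusted p = 0.00646, SE 0.51), and -4.00 without control 2 (edgeR adjusted p = 1.071e-04, SE 0.34). With any 1 other library left out, the edgeR adjusted p stayed at 0.0206 to 0.0415.

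F2rl1, the gene of PAR2, did not pass the test with all libraries. It had 105, 60 and 53 counts in knockouts 1, 2 and 3, against 220, 50 and 241 counts in controls 1, 2 and 3. The CPM values were 5.40, 3.35 and 2.95 in knockouts and 11.6, 2.72 and 13.2 in controls. Control 2 lay below all 3 knockouts, while controls 1 and 3 lay above all of them, and so the groups overlapped. The means were 3.90 ± 1.31 CPM in knockouts and 9.17 ± 5.65 CPM in controls, with a log2 fold change of -1.23 (edgeR adjusted p = 0.191, SE 0.60). Without control 2 the log2 fold change came to -1.70 (edgeR adjusted p = 0.00121, SE 0.24), and 31.4% of the mean of controls 1 and 3 remained.

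Taken gene by gene, a two-sided exact permutation of the CPM gave p = 0.1 for F2r, F2rl2 and F2rl3, which is the lowest value 3 against 3 libraries can reach, and p = 0.4 for F2rl1.

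**Figure D2:**
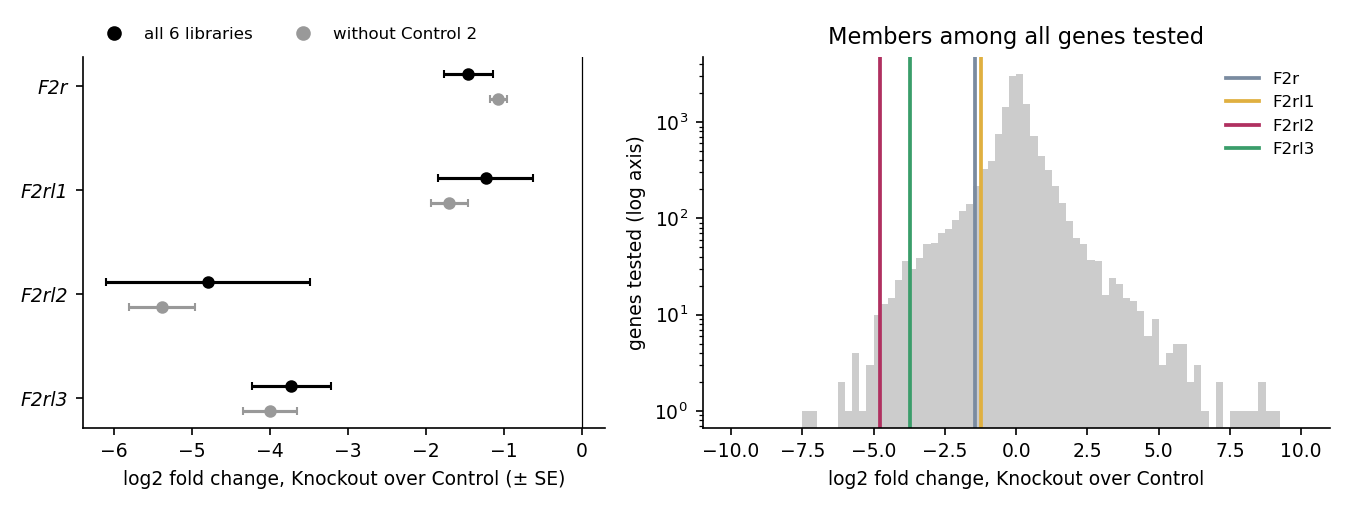
Left, log2 fold change of knockout over control with its SE for each receptor gene, with all 6 libraries (black) and without control 2 (grey). Right, the same log2 fold changes as lines over the distribution of all 13901 genes tested (log axis); F2rl2 and F2rl3, at -4.79 and -3.72, lie in the lower tail.

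To compare levels between the receptors, counts were divided by the merged exon length of each gene and scaled to a sum of 1000000 per library, which is called the length-scaled level here. F2r stood at 213, 173 and 178 in knockouts 1, 2 and 3, against 338, 732 and 388 in controls 1, 2 and 3. The summed length-scaled level of the 4 genes was 223, 182 and 189 in knockouts, against 433, 756 and 497 in controls. These sums did not overlap (means 198 ± 21.9 in knockouts and 562 ± 171 in controls, SD, n = 3 each, exact two-sided permutation p = 0.1, the smallest possible).

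In every library F2r had the highest length-scaled level of the 4 genes. Behind it the order differed between libraries. In controls 1 and 3, F2rl2 came second with 51.2 and 55.5, followed by F2rl3 with 28.3 and 34.6 and F2rl1 with 16.2 and 18.1. In control 2 the order behind F2r was F2rl3 with 17.4, F2rl1 with 3.76 and F2rl2 with 2.47. In all 3 knockouts F2rl1 was second with 7.92, 4.84 and 4.42, followed by F2rl3 with 0.932, 2.22 and 3.33 and F2rl2 with 0.330, 1.24 and 2.65. In the knockouts the ranges of F2rl2 and F2rl3 overlapped each other across libraries, and so did those of F2rl1 in knockouts (4.42 to 7.92) and in controls (3.76 to 18.1).

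Expressed as a share of the 4-receptor sum, F2r made up 95.9, 95.4 and 94.5% in knockouts 1, 2 and 3, against 77.9, 96.9 and 78.2% in controls 1, 2 and 3. Control 2 thus lay above the knockouts and the other controls below them (exact two-sided permutation p = 0.4). F2rl2 made up 0.148, 0.681 and 1.40% in knockouts, against 11.8, 0.327 and 11.2% in controls (exact two-sided permutation p = 0.3). The share of F2rl3 was 0.419, 1.22 and 1.76% in knockouts, against 6.53, 2.30 and 6.97% in controls, without overlap (exact two-sided permutation p = 0.1). The share of F2rl1 was 3.56, 2.66 and 2.34% in knockouts, against 3.73, 0.498 and 3.65% in controls, and the ranges overlapped. With control 2 left out, the summed level and all 4 shares separated the knockouts from controls 1 and 3, with the share of F2r higher and the other shares lower in knockouts, and each exact two-sided permutation p was 0.2, the smallest that 3 against 2 libraries allow.

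**Figure D3:**
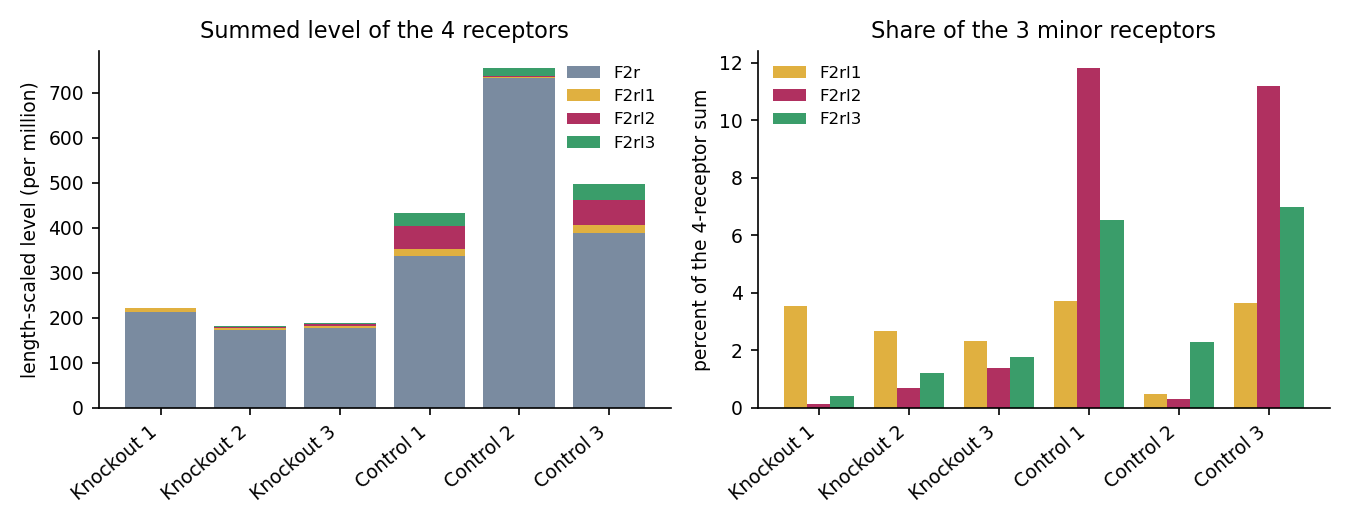
Left, length-scaled level of the 4 receptor genes stacked for each library, knockouts first. Right, the share of the 4-receptor sum held by F2rl1, F2rl2 and F2rl3; F2rl2 holds 11.8% and 11.2% in controls 1 and 3 and at most 1.40% in the other libraries.

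The genes around the receptors were read from the annotation. Within 250 kb of F2rl1, F2r or F2rl2, 4 of 12 other annotated genes were tested and 1 was called, Iqgap2, which was lower. Over all genes tested, 24.7% were called in either direction and 11.7% were called lower. Iqgap2, encoding an IQGAP scaffold protein, ends 8690 bases from F2r on the minus strand and contains F2rl2 on its opposite strand. It had 1.08, 0.502 and 1.34 CPM in knockouts 1, 2 and 3, against 4.11, 7.90 and 5.92 CPM in controls 1, 2 and 3 (log2 fold change -2.61, SE 0.43, edgeR adjusted p = 0.0108; -2.39 without control 2). Control 2 had the highest Iqgap2 level and the lowest F2rl2 level of the controls, so that the counts of the host gene and the gene inside it did not follow each other in that library. The call of Iqgap2 was lost without knockout 1 (edgeR adjusted p = 0.0523).

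The other tested neighbours on chromosome 13 were not called with all libraries. Crhbp, encoding a binding protein of corticotropin-releasing hormone, had 0.719, 0.223 and 0.557 CPM in knockouts and 1.69, 0.327 and 1.53 CPM in controls, with control 2 among the knockouts, and was called lower without control 2 (edgeR adjusted p = 0.0163). The log2 fold changes of Aggf1 and Zbed3 were 0.33 and -0.09. Around F2rl3, 5 of 14 other annotated genes were tested and 0 were called by edgeR; at an unadjusted p under 0.05, 2 were lower, while DESeq2 called 1 of the 5 and limma voom 0. Without control 2, Sin3b and Tmem38a were called lower (edgeR adjusted p = 9.048e-04 and 0.0229), beside 24.8% of all genes called lower. The closest tested neighbour, Sin3b, ends 3679 bases before F2rl3 and encodes a transcriptional corepressor. It had 96.6, 89.8 and 97.2 CPM in knockouts and 123, 102 and 121 CPM in controls (log2 fold change -0.29, edgeR adjusted p = 0.0656). The log2 fold changes of Med26, Smim7 and Tmem38a ran from -0.56 to 0.20. Of the exonic bases of Med26, 12.7% lie in exons of Gm17435 on the other strand, so that its count is uncertain.

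**Figure D4:**
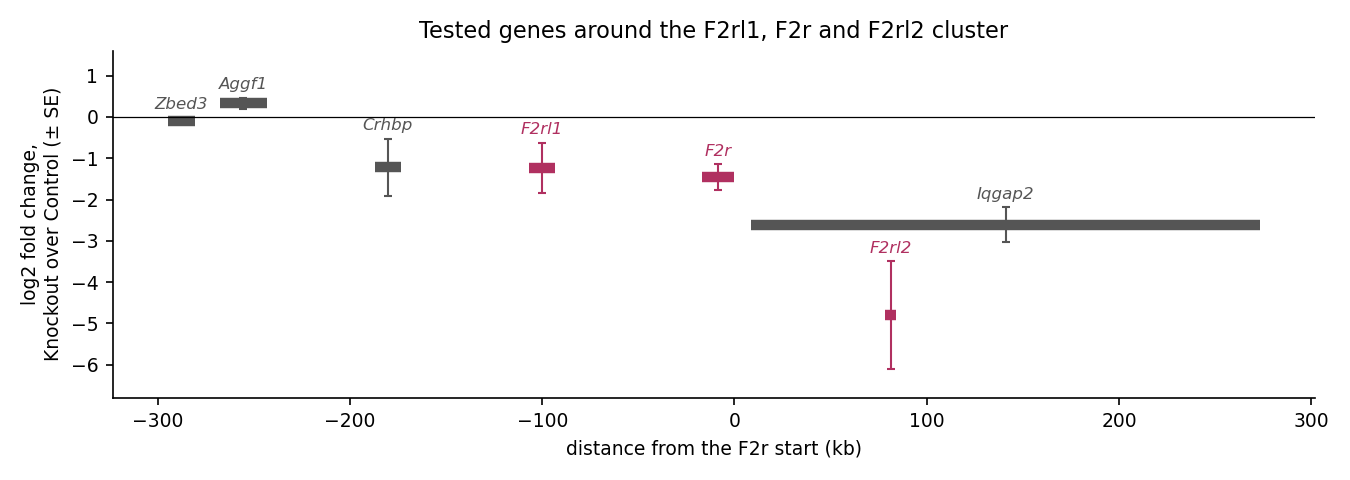
Tested genes around the receptor cluster of chromosome 13, drawn as bars at their distance from the F2r start (kb) and at the height of their log2 fold change of knockout over control, with the SE. F2rl2, at -4.79, lies within the span of Iqgap2, at -2.61, while Aggf1 and Zbed3 lie near 0.

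Proteases that can activate the receptors mostly had few or no transcripts in these cells. Of 20 listed genes, 14 had at most 5 counts in every library, among them F2 (prothrombin), F7, F10, Plg (plasminogen) and the trypsin genes Prss1, Prss2 and Prss3; F10, Tpsab1, Tpsb2, Prss1 and Prss3 had none. The 5 that were tested included 1 called higher and 1 called lower, beside 13.1% and 11.7% of all genes, and both are given after their values were seen, since neither reached a mean of 5 CPM. St14, encoding matriptase, a membrane protease that cleaves PAR2, had 35, 69 and 48 counts in knockouts and 23, 12 and 19 counts in controls (log2 fold change 1.51, SE 0.38, edgeR adjusted p = 0.0374; 1.25 without control 2). The call of St14 was lost when any 1 library other than control 2 was left out (edgeR adjusted p = 0.0515 to 0.117). Mmp1a, a collagenase gene, had 2, 0 and 0 counts in knockouts, against 16, 46 and 19 counts in controls, a ratio of control to knockout of 40.3 with a 95% exact binomial interval of 10.8 to 339 that covers counting error only; its call was lost when any 1 knockout was left out (highest edgeR adjusted p = 0.0682).

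F3, encoding tissue factor, was uniform in knockouts and split among controls. It had 141, 136 and 139 CPM in knockouts, against 18.7, 162 and 28.2 CPM in controls 1, 2 and 3, and so did not pass with all libraries (edgeR adjusted p = 0.417). Without control 2 it was higher in knockouts by 2.53 on the log2 scale (edgeR adjusted p = 2.606e-05). Mmp2, a gelatinase gene, had 560.4, 491 and 549 CPM in knockouts, against 138, 715 and 149 CPM in controls, the same pattern. F3 and Mmp2 were chosen with their values in view. Without control 2, 4 of the 5 tested proteases were called higher, beside 25.5% of all genes.

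Cofactors and inhibitors of thrombin and activated protein C moved in both directions. Of 10 tested genes 3 were called higher and 2 lower, beside 13.1% and 11.7% of all genes, and the median log2 fold change came to -0.28, or 1.08 without control 2, where 6 were called higher and 4 lower, beside 25.5% and 24.8% of all genes. Tfpi, the inhibitor of the tissue factor pathway, had 584, 608 and 554 CPM in knockouts, against 199.6, 267 and 245 CPM in controls (log2 fold change 1.29, SE 0.12, edgeR adjusted p = 0.00270; 1.35 without control 2). Pros1, encoding protein S, the cofactor of activated protein C, had 443 ± 48.3 CPM in knockouts and 194 ± 8.20 CPM in controls (log2 fold change 1.19, edgeR adjusted p = 0.00194; 1.17 without control 2). Both rose in the knockout, with every knockout above every control, and both were called whichever 1 library was left out.

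Among the genes called lower in this list was Tfpi2. Tfpi2, a Kunitz-type protease inhibitor gene, had 5.46 ± 0.240 CPM in knockouts and 13.6 ± 3.38 CPM in controls (log2 fold change -1.31, edgeR adjusted p = 0.00852; -1.42 without control 2). The remaining gene called higher was Serpind1, encoding heparin cofactor II, which was picked out after its values were seen and had 22, 17 and 13 counts in knockouts, against 2, 0 and 2 counts in controls; it was not called without knockout 1 or knockout 2 (highest edgeR adjusted p = 0.0599). Tfpi2 was called whichever 1 library was left out.

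For the receptors that steer thrombin and activated protein C on the endothelial surface, the result depended on control 2. Procr encodes the endothelial protein C receptor, which presents activated protein C to PAR1. It had 109, 129 and 113 CPM in knockouts, against 431, 107 and 441 CPM in controls 1, 2 and 3, with control 2 at the knockout level, and was called lower only without control 2 (log2 fold change -1.48, edgeR adjusted p = 0.0920 with all libraries; -1.93, edgeR adjusted p = 5.588e-06 without it). Thbd, encoding thrombomodulin, had 617, 617 and 518 CPM in knockouts, against 248, 1396 and 299.5 CPM in controls, with control 2 the highest of the 6 libraries. Its log2 fold change came to -0.15 with all libraries (edgeR adjusted p = 0.894) and 1.06 without control 2 (edgeR adjusted p = 2.587e-04). Procr and Thbd, too, were chosen with their values in view.

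Genes that link PAR1 to the endothelial barrier were lower where they were called. Of 7 tested partners of the protein C and sphingosine route, 3 were called lower and 0 higher by edgeR, beside 11.7% and 13.1% of all genes (0 higher at an unadjusted p under 0.05, by DESeq2 or by limma voom). S1pr1, the sphingosine-1-phosphate receptor gene, had 104, 105 and 98.2 CPM in knockouts, against 502, 346 and 506 CPM in controls (log2 fold change -2.14, SE 0.16, edgeR adjusted p = 0.00163; -2.34 without control 2). Tek, encoding the angiopoietin receptor TIE2, had 26.6 ± 5.50 CPM in knockouts and 116 ± 1.95 CPM in controls (log2 fold change -2.12, edgeR adjusted p = 0.00145; -2.16 without control 2). Cav1, encoding caveolin-1, in whose membrane domains activated protein C signals, had 758, 655 and 707 CPM in knockouts, against 3554, 1021 and 3470.5 CPM in controls (log2 fold change -1.92, edgeR adjusted p = 0.0357; -2.35 without control 2). Without control 2, 5 of the 7 were called lower, beside 24.8% of all genes. When any 1 other library was left out, S1pr1 and Tek were called and Cav1 was not (edgeR adjusted p = 0.0989 to 0.131). Procr belongs to this list too.

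Most signal transducers below the receptors were not called, and those that were called went in both directions. Of 28 tested G protein and effector genes, 5 were called higher, 4 lower and 19 not called, beside 13.1% higher and 11.7% lower among all genes. With any 1 library other than control 2 left out, 3 to 4 were called higher and 0 to 1 lower. Stim1, the calcium sensor of the endoplasmic reticulum that opens store-operated channels, had 109, 119 and 108 CPM in knockouts, against 44.6, 41.7 and 46.4 CPM in controls (log2 fold change 1.34, SE 0.07, edgeR adjusted p = 6.445e-04; 1.26 without control 2). Orai1, encoding the channel that STIM1 opens, had 33.0 ± 1.93 CPM in knockouts and 65.7 ± 17.7 CPM in controls (log2 fold change -0.99, edgeR adjusted p = 0.0237; -1.24 without control 2), the opposite direction. Stim1 was called whichever 1 library was left out, whereas Orai1 was called with all libraries and without control 2 only (edgeR adjusted p = 0.0776 to 0.0994 with any 1 other library left out).

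Gnai2, encoding an inhibitory G protein subunit, had 674 ± 17.2 CPM in knockouts and 1378 ± 359 CPM in controls (log2 fold change -1.03, edgeR adjusted p = 0.0197; -1.27 without control 2). Itpr2, an inositol trisphosphate receptor gene, had 37.1 ± 2.10 CPM in knockouts and 77.3 ± 16.2 CPM in controls (log2 fold change -1.06, edgeR adjusted p = 0.00928; -1.25 without control 2). Genes for G proteins through which PAR1 signals had log2 fold changes of 0.27 (Gnaq), -0.26 (Gna11), -0.24 (Gna12) and 0.32 (Gna13), of which Gna11 was called lower and Gna13 higher. The choice of these G protein genes was made with their values in view. Gna11 lost its call under scaling by library size only (edgeR adjusted p = 0.113), and Gna11, Gna13 and Gnai2 lost theirs when any 1 library other than control 2 was left out (edgeR adjusted p = 0.0664 to 0.152). Itpr2 lost its call without knockout 2 (edgeR adjusted p = 0.0526). Without control 2, 7 of the 28 were called higher and 12 lower, beside 25.5% and 24.8% of all genes.

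Among genes that switch off or sort the receptors, 4 of 18 tested were called lower and 0 higher by edgeR, beside 11.7% and 13.1% of all genes (1 higher at an unadjusted p under 0.05, and 0 by DESeq2 or limma voom). Arrb1, encoding beta-arrestin 1, had 35.8, 43.4 and 57.2 CPM in knockouts, against 341, 192 and 380.02 CPM in controls (log2 fold change -2.74, SE 0.32, edgeR adjusted p = 0.00427; -3.02 without control 2). Its relative Arrb2 was not called, with a log2 fold change of 0.32, though it passed when only the library size was used (edgeR adjusted p = 0.0450). Rgs3, encoding a regulator that shortens G protein signals, had 62.03 ± 4.42 CPM in knockouts and 139.5 ± 15.5 CPM in controls (log2 fold change -1.17, edgeR adjusted p = 0.00219; -1.28 without control 2). Grk5, a G protein-coupled receptor kinase gene, had 79.4 ± 3.17 CPM in knockouts and 127 ± 7.76 CPM in controls (log2 fold change -0.67, edgeR adjusted p = 0.00294; -0.76 without control 2). The fourth, Pdcd6ip, encoding ALIX, which sorts PAR1 to lysosomes, changed by -0.26 on the log2 scale (edgeR adjusted p = 0.0437) and lost its call when any 1 library other than control 2 was left out (edgeR adjusted p = 0.124 to 0.163). Arrb1, Rgs3 and Grk5 were called whichever 1 library was left out. Without control 2, 8 of the 18 were called lower and 1 higher, beside 24.8% and 25.5% of all genes.

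Transcripts that thrombin is known to induce in endothelial cells moved in both directions while the receptors were lower. Of 26 tested, 8 were called higher and 3 lower, beside 13.1% and 11.7% of all genes. The neutrophil chemokine gene Cxcl2 had 55.3, 78.6 and 58.5 CPM in knockouts, against 4.64, 6.43 and 4.44 CPM in controls (log2 fold change 3.63, SE 0.22, edgeR adjusted p = 9.906e-04; 3.78 without control 2). Its relative Cxcl1 had 441 ± 69.6 CPM in knockouts and 37.04 ± 31.8 CPM in controls (log2 fold change 3.57, edgeR adjusted p = 0.0138; 4.52 without control 2). Fos, an early-response transcription factor gene, had 183, 166 and 151 CPM in knockouts, against 10.01, 40.4 and 11.5 CPM in controls (log2 fold change 3.01, edgeR adjusted p = 0.0178; 3.92 without control 2). The monocyte chemokine gene Ccl2 had 1369.8 ± 147 CPM in knockouts and 248 ± 40.5 CPM in controls (log2 fold change 2.47, edgeR adjusted p = 0.00118; 2.32 without control 2).

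Icam1, Ptgs2, Tnfaip3 and Nfkbia were the other four called higher, and Hbegf and Rcan1 were among those called lower, with log2 fold changes of -0.97 and -0.90. Several of these genes respond to many other signals. The list depended on control 2, which had, for example, 97.2 CPM of Il6 against 2.11 and 4.22 CPM in controls 1 and 3, and 17 members were called higher and 7 lower without it, beside 25.5% and 24.8% of all genes. Cxcl2 and Ccl2 were called whichever 1 library was left out. Cxcl1 lost its call without knockout 1 or 2 (highest edgeR adjusted p = 0.0571), and Fos without control 3 or any 1 knockout (highest edgeR adjusted p = 0.0661). Ptgs2 lost its call when any 1 library other than control 2 was left out (edgeR adjusted p = 0.0542 to 0.0936), and Hbegf without control 1, control 3 or knockout 1 (highest edgeR adjusted p = 0.0881). Whether the level of any receptor bears on these transcripts was not tested.

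**Figure D5:**
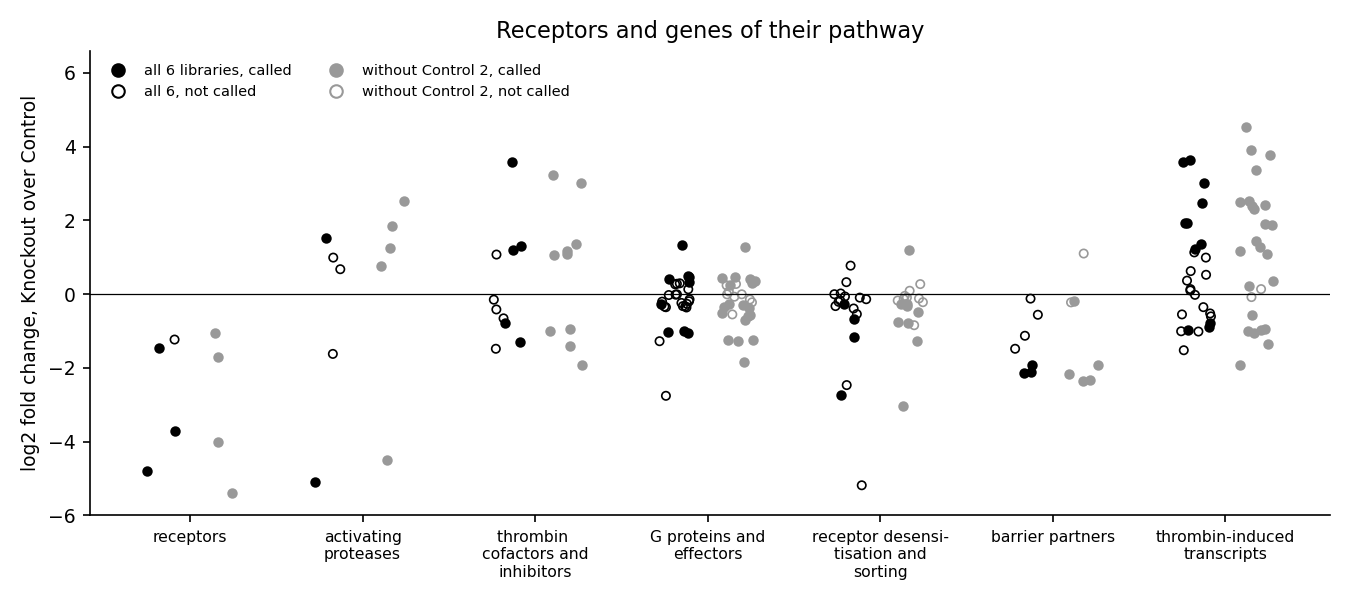
Log2 fold change of knockout over control for the receptors and the tested genes of 6 pathway lists (1 point a gene), with all 6 libraries (black) and without control 2 (grey); filled points were called. All 4 receptors lie below 0, and the genes of the protease, cofactor, G protein and thrombin-induced lists lie on both sides.

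Finally, the genes whose levels followed each receptor most closely over the 6 libraries were listed by the Pearson correlation of log2(CPM + 0.5) among 10255 genes whose mean was 5 CPM or more, as a description without a test. With 6 libraries in 2 groups, many genes reach values near 1. The closest to F2rl2 were Vps52 (r = 0.999), Fam131a, Rnf19a, C1qtnf9 and Stard8 (r = 0.996), each with control 2 near the knockouts. Of these C1qtnf9, a C1q and TNF-related secreted protein gene, had 0.103, 0.335 and 1.56 CPM in knockouts, against 25.6, 1.31 and 29.2 CPM in controls. The closest to F2r were Acy1, Sfr1, Inhba, Bzw2 and Sec23a (r = 0.995 to 0.998), in which control 2 was the highest library. Inhba, encoding the activin A subunit, had 203, 190.2 and 169.8 CPM in knockouts, against 427, 986 and 487 CPM in controls.

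The closest to F2rl3 were Rnf122, Cdr2, Slc7a5, Ppm1j and Neu3 (r = 0.997 to 0.998). Ppm1j, a protein phosphatase gene, had 6.58, 9.60 and 15.98 CPM in knockouts, against 124, 68.5 and 123 CPM in controls, the largest change among these 5 (log2 fold change -3.30, edgeR adjusted p = 0.00537). Among those closest to F2rl1 were Bola3, Tm6sf1, Fip1l1 and Sec23b (r = 0.990 to 0.991), with log2 fold changes of -0.56 to -0.16. Exons of other genes overlap those of Tm6sf1 over 20.6% of their length on the opposite strand and those of Sec23a over 8.90%, so their counts are uncertain. Among the receptors themselves F2rl2 and F2rl3 had r = 0.884, F2rl1 and F2rl2 had r = 0.842, and F2r and F2rl1 had r = 0.178, all of which share the 6 libraries and the position of control 2.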

How the data were processed

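Polyadenylated RNA of sorted endothelial cells was sequenced, from libraries made with either TruSeq Stranded mRNA or TruSeq RNA v2 kits per the labels' protocols, which do not tie a kit to a library. The authors deposited whole-number counts per gene for 52636 Ensembl identifiers in 6 libraries, and these were used as deposited. The submitters' processing notes name FastQC 0.11.5, STAR 2.7.6a and the build GRCm38. How reads were counted, on which strand and with which annotation is not given in the sources used here, so overlapping genes of opposite strands may share reads. The table had 0 rows naming no gene and 0 columns of other samples.

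Symbols, positions and exon lengths came from GENCODE M21, which matched 52489 identifiers; the 147 others held at most 0.00608% of a library's counts. Groups and replicate numbers were read from the sample titles. Genes were filtered with filterByExpr by group in edgeR 4.0.16 (R 4.3.3), scaled by TMM and tested, without covariates, with the quasi-likelihood functions glmQLFit and glmQLFTest, with Benjamini-Hochberg adjustment over all 13901 genes kept. The SE is the size of the log2 fold change divided by the square root of F. Single values were tested by exact permutation, two-sided, in scipy 1.17.1, and the ratio of small counts has an exact binomial interval; intervals cover counting error only. Libraries of 17274639 to 19410458 counts all differed from each other by more than sampling noise (lowest chi-square per degree of freedom 6.28). The edgeR fit was tested on simulated data.

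The receptors, the gene lists and the tests were chosen with earlier results of these data known. The text names the receptors, Erg and Fli1. From each pathway list it names the 4 called genes with the largest change and a mean of at least 5 CPM. It also names each tested neighbour within 250 kb and the 5 genes most like each receptor. The leading member of a marker list is named where one is needed. Any other gene was picked after its values were seen, also where the text does not say so. Some genes that the rule selects are not reported here. Alternatives were 3 other scalings, DESeq2 1.42.0, limma voom (limma 3.58.1), 2 other filters, a replicate block and leaving out each library. Promoter sequences are RefSeq entries on GRCm38.p6. Protein sequences were not used here.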

Additional observations from a re-analysis of the deposited data

How the results depend on the processing

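F2r, F2rl1, F2rl2 and F2rl3 kept a negative log2 fold change under every scaling, filter, tool and omission tried, and F2rl3 kept its call in all of them. With each library left out in turn, log2 fold changes ran from -1.67 to -1.07 for F2r, -1.70 to -0.90 for F2rl1, -5.60 to -4.31 for F2rl2 and -4.15 to -3.36 for F2rl3. F2rl2 was not called with limma voom (-4.27, adjusted p = 0.319); the cause was not tested. F2rl1 passed only without control 2. The share of F2rl1 in the receptor sum differed by 0.227 percentage points (knockout minus control) with all libraries, by -0.837 without control 2 and by -0.123 without knockout 1, the other omissions reaching 0.780. The summed level differed by -364 on the scale of 1000000 per library and by -99.2 as TMM-scaled counts per kilobase, a different scale by construction. The count of genes called was 3437 with all libraries and ran from 1351 without knockout 2 to 7128 without control 2, the other omissions giving 1788 (control 1), 1582 (control 3), 1467 (knockout 1) and 1609 (knockout 3).

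The correlations of deviations between same-numbered libraries were -0.174, 0.161 and 0.254, and not every library correlated best with its own number. With few libraries per group and a control far from the others, these correlations cannot decide whether same-numbered libraries share an animal or culture. With a replicate block, 1844 genes were called, F2r stood at -1.37 (edgeR adjusted p = 0.0666), F2rl2 at -4.28 (edgeR adjusted p = 0.112) and F2rl3 was called (edgeR adjusted p = 0.0230). The low counts of F2rl2 and F2rl3 in knockouts, 4 to 29 in a library, limit the precision of their fold changes.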
